A study of Homo sapiens with 3 samples.

Results

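The genes described here encode the glycoproteins and proteoglycans of the extracellular matrix and the enzymes that modify and crosslink collagen. They are 48 genes, taken by name and not by a cut on their values, though with earlier results of these data known. All 48 had at least 1 probe set with a single gene symbol, of 19775 genes with such a probe set. The cells were SKOV-3, an ERBB2-amplified line of human ovarian cancer, transduced with lentivirus that expressed G9a shRNA1 or G9a shRNA2 (shRNA1 and shRNA2 from here on), or an shRNA that targets luciferase as the control (Luc shRNA). All 3 stable lines had been selected with puromycin for the vector, so the control shares the virus and the drug but not the target. Nothing in the sources used here says whether the lines were pools or single clones. Total RNA of each line was hybridised to 1 Affymetrix array, giving 3 arrays with no replicate, so a difference below is between these arrays and has no replicate error or test. EHMT2, which encodes the H3K9 methyltransferase G9a, had a signal of 182 on the Luc array, 29.7 on the shRNA1 array and 79.2 on the shRNA2 array at its brightest probe set, log2 ratios of -2.62 and -1.20 to the control. A second EHMT2 probe set past the filter used below gave -0.21 and -0.75.

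Matrix glycoproteins such as fibronectin and the thrombospondins give cells sites to attach to and are bound by integrins, while proteoglycans such as versican and the syndecans carry long sugar chains that bind water and growth factors. Collagen chains are hydroxylated in the endoplasmic reticulum by prolyl and lysyl hydroxylases, folded with the help of a chaperone, secreted, and then crosslinked outside the cell by lysyl oxidases. In ovarian cancer these genes are known from the stroma as well as from tumour cells, and several of them serve adhesion to the peritoneum. The comparison asked which of them differed in level between cells with a G9a shRNA and cells with Luc shRNA.

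Signals are MAS5 values on a linear scale. Each gene was read at its brightest probe set, meaning the one with the highest mean log2 signal over the 3 arrays, and a gene passed the filter when its highest signal reached the median of all values, 12.0. Of the 48 members, 38 passed this filter, and 27 also reached the 75th percentile of all values, 89.7. The other 10 members, BGN, ELN, EMILIN1, FBN2, GPC3, LOXL4, LUM, NID2, POSTN and THBS2, stayed under the median on all arrays and are given no value. Between the G9a shRNA arrays, which do not involve the control, the log2 difference over all genes had an SD of 0.24 past the 75th percentile and of 0.87 between the median and the 75th percentile. Ratios of dimmer members are therefore less certain.

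More members were lower than higher with a G9a shRNA. With shRNA1, 6 of the 38 members past the median were more than 2-fold lower and 2 were more than 2-fold higher, while 5.1% and 4.21% of all 13192 genes past the same filter were. With shRNA2 the counts were 3 lower and 1 higher, against 3.58% and 4.35% of all genes. The lower counts include DCN with shRNA1, which passed the filter on the control array alone. They also include LOXL3 with shRNA2, which passed it on the shRNA1 array alone. A filter on the geometric mean over the arrays, chosen after seeing the data, left 5 lower with shRNA1 and 2 with shRNA2. Past the 75th percentile, 5 of 27 members were more than 2-fold lower with shRNA1 (MATN2, EMILIN2, PLOD2, SDC2 and CTHRC1) and 0 were higher, against 1.98% and 0.958% of 8348 genes. With shRNA2, 2 of these 27 were lower (MATN2 and SDC2) and 0 were higher, against 0.539% and 1.4%. The study had picked EMILIN2 and CTHRC1 from these same arrays, so they are no independent part of the shRNA1 counts. The median log2 ratio over all 48 members was -0.30 with shRNA1 and -0.25 with shRNA2, and over all genes it was 0.02 and 0.09. Over the 27 members past the 75th percentile it was -0.46 and -0.42, against 0.00 and 0.13 over all genes there. Both comparisons share the Luc shRNA array, so an error of that array enters both alike. Lower RNA per cell and fewer cells that make a transcript cannot be told apart in such bulk RNA.

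**Figure D1:**
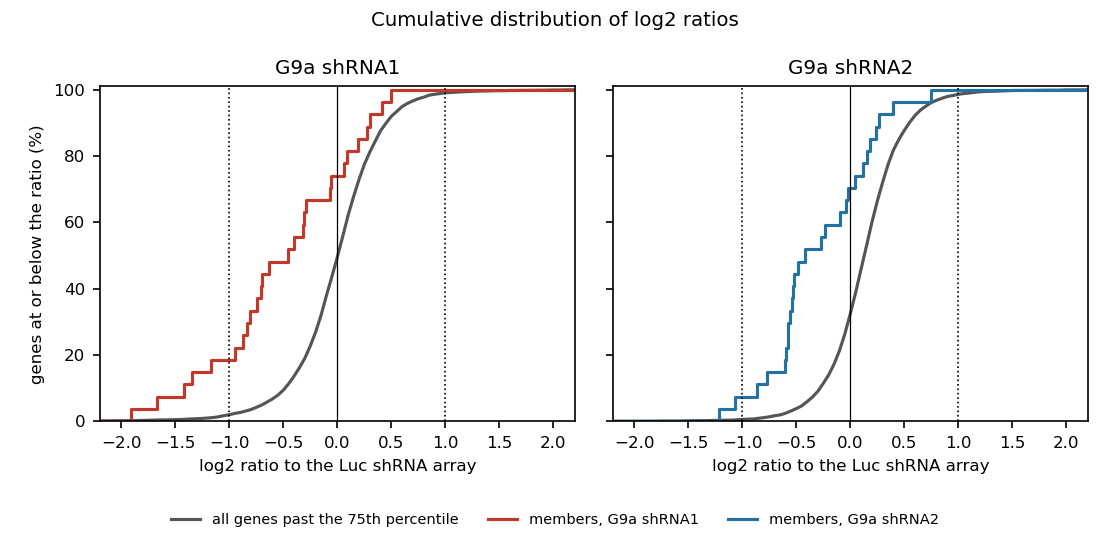
Share of genes (y axis, %) at or below each log2 ratio to the Luc shRNA array (x axis), for all 8348 genes past the 75th percentile of signal (grey) and for the 27 members there (red, G9a shRNA1; blue, G9a shRNA2). Dotted lines mark 2-fold. The members lie to the left of all genes in both panels, with medians of -0.46 and -0.42.

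Several array-wide values moved with these comparisons. The signals of 8 epithelial markers summed to 7105 with Luc shRNA, 8659 with shRNA1 and 10068 with shRNA2, and all 8 passed the filter. KRT8, CDH1 and EPCAM were among the 7 above the control with both shRNAs, at log2 ratios of 0.36 and 0.70, 0.41 and 0.89, and 1.06 and 0.98, whereas ERBB2 gave -0.36 and -0.02. Markers of fibroblasts and mesothelium, cells that make much of this matrix in tissue, summed to between 120.1 and 127 over 8 genes. The largest part of that sum was UPK3B, at -0.21 and 0.12, while ACTA2 read 22.0 on the Luc array, 8.97 on the shRNA1 array and 14.1 on the shRNA2 array, log2 ratios of -1.29 and -0.64, and CALB2 gave -1.35 and -0.67. ACTA2, a smooth muscle and myofibroblast actin, and CALB2, a mesothelial calcium-binding protein, were thus lower on both G9a shRNA arrays, but at low signal. CALB2 read 18.3 on the Luc array, 7.17 on the shRNA1 array and 11.5 on the shRNA2 array, past the median of all values on the control array alone. ACTA2 was under that median on the shRNA1 array. THY1 gave 0.21 and 0.17. None of these 8 reached the 75th percentile, and PDGFRA, PDGFRB, FAP and MSLN were under the median on all arrays. No leukocyte marker passed the median among 4 measured, and 1 of 5 endothelial markers did. The 3′ to 5′ signal ratio of β-actin, from control probe sets at both ends of its transcript, was 3.68 on the control array, 1.83 with shRNA1 and 1.47 with shRNA2. The same ratio for GAPDH was between 1.12 and 1.15. The part of RNA integrity and of these marker genes in the members' ratios was not tested.

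**Figure D2:**
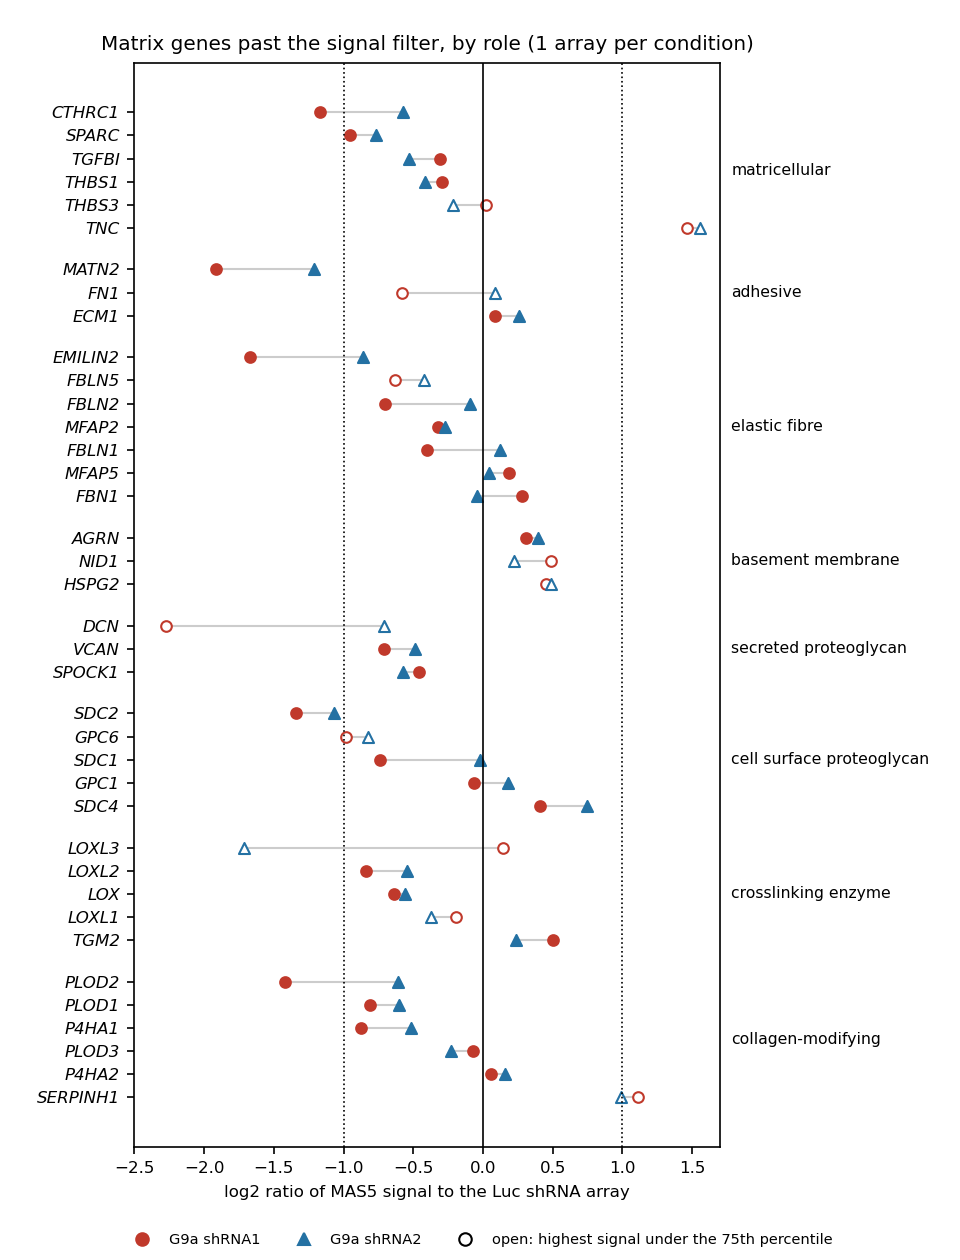
Log2 ratio to the Luc shRNA array (x axis) of the 38 members past the filter, grouped by role, with shRNA1 as red circles and shRNA2 as blue triangles, 1 array each. Open symbols mark genes whose highest signal lay under the 75th percentile and dotted lines mark 2-fold. MATN2 and SDC2 lie past the left line with both shRNAs, and TNC lies past the right line with both.

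Matricellular proteins are secreted proteins that act on cells more than they build fibres. Of the 8 in this group, 6 passed the filter, and their median was -0.30 with shRNA1 and -0.47 with shRNA2. Over all 8, with THBS2 and POSTN read under the median of all values, it was -0.57 and -0.55. CTHRC1, a secreted protein with a short collagen-like repeat, had a signal of 295 on the Luc array, 131 on the shRNA1 array and 198 on the shRNA2 array. It was 2.25-fold lower with shRNA1 and 1.49-fold lower with shRNA2 (log2 ratios of -1.17 and -0.57), so the control was the highest of the 3 arrays. The study picked CTHRC1 from these same arrays, so its direction here is not independent evidence. By quantitative RT-PCR the study also reported CTHRC1 as lower after G9a depletion. SPARC, a collagen-binding glycoprotein, had a signal of 176 on the Luc array, 91.1 on the shRNA1 array and 103 on the shRNA2 array, log2 ratios of -0.95 and -0.77. Both G9a shRNA arrays lay below the control at each of its 2 probe sets, and the dimmer one gave -1.06 and -1.29. TGFBI, an integrin ligand induced by TGF-β, read 212 on the Luc array, 171 on the shRNA1 array and 147 on the shRNA2 array, log2 ratios of -0.31 and -0.53. THBS1, which encodes thrombospondin 1, read 2075 on the Luc array, 1696 on the shRNA1 array and 1552 on the shRNA2 array at its brightest probe set. At their brightest probe sets SPARC, TGFBI and THBS1 stayed under 2-fold, and the control was the highest array in each. THBS3 gave log2 ratios of 0.02 and -0.22 from a control signal of 23.7.

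TNC went the other way. It encodes tenascin C, a protein of wounds, development and tumour stroma, and its signal was 13.7 on the Luc array, 37.8 on the shRNA1 array and 40.3 on the shRNA2 array. The signal was thus 2.76-fold and 2.94-fold higher, and both G9a shRNA arrays lay above the control. The control signal was close to the median of all values, and the other 2 TNC probe sets were under it on all arrays.

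Of the adhesive glycoproteins, MATN2 differed most. It encodes matrilin-2, which joins collagen fibres to other matrix filaments, and its signal was 277 on the Luc array, 73.7 on the shRNA1 array and 119.7 on the shRNA2 array. It was 3.76-fold lower with shRNA1 and 2.32-fold lower with shRNA2. Among the 8348 genes past the 75th percentile, these log2 ratios of -1.91 and -1.21 stood at ranks 16 and 22 from the lowest. FN1, which encodes fibronectin, gave -0.58 and 0.09 at the probe set with the highest mean signal. That probe set, like 2 others of the gene, is of a type (_x_at) whose probes can match other transcripts. Its probe set with the highest control signal is not of that type and had a signal of 100.4 on the Luc array, 56.4 on the shRNA1 array and 50.9 on the shRNA2 array, log2 ratios of -0.83 and -0.98. ECM1, a glycoprotein of skin and cartilage matrix, gave 0.09 and 0.26.

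Elastic fibres are made of an elastin core laid on fibrillin microfibrils and finished by fibulins and EMILINs. Of 10 genes of this kind, 7 passed the filter, with ELN itself under it, and the median of those 7 was -0.40 with shRNA1 and -0.09 with shRNA2. Over all 10, with ELN, FBN2 and EMILIN1 read under the median of all values, it was -0.07 and 0.00. EMILIN2, a glycoprotein of elastic fibres, had a signal of 201 on the Luc array, 63.0 on the shRNA1 array and 111 on the shRNA2 array. The study also picked EMILIN2 from these arrays, which makes its direction here no independent evidence. It too was reported there as lower after G9a depletion by quantitative RT-PCR. It was 3.19-fold lower with shRNA1 and 1.82-fold lower with shRNA2, ranks 31 and 71 from the lowest of the 8348 genes. FBLN5, a fibulin that helps elastin assemble, had a signal of 37.8 on the Luc array, 24.4 on the shRNA1 array and 28.2 on the shRNA2 array, log2 ratios of -0.63 and -0.42. The other fibulins differed between the shRNAs, since FBLN2 read 366 on the Luc array, 225 on the shRNA1 array and 343 on the shRNA2 array, log2 ratios of -0.70 and -0.09, and FBLN1 gave -0.40 and 0.12. For both, the shRNA2 array lay near the control and the shRNA1 array below it. The fibrillin gene FBN1 gave 0.28 and -0.04, and the microfibril genes MFAP2 and MFAP5 gave -0.32 and -0.27, and 0.19 and 0.04.

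Of 4 genes of the basement membrane, the sheet under epithelia that laminins and collagen IV form, 3 passed the filter (HSPG2, AGRN and NID1). They were higher with both shRNAs at the brightest probe set, and none was past 2-fold. HSPG2, which encodes perlecan, a heparan sulfate proteoglycan of that sheet, had a signal of 52.5 on the Luc array, 71.8 on the shRNA1 array and 73.8 on the shRNA2 array, log2 ratios of 0.45 and 0.49. AGRN, which encodes agrin, a proteoglycan of the same kind, read 251 on the Luc array, 310.0 on the shRNA1 array and 330.4 on the shRNA2 array, log2 ratios of 0.31 and 0.40. The control was the lowest array in each, but 2 dimmer AGRN probe sets past the filter gave -0.19 and 0.27, and 0.02 and 0.27, so AGRN was not above the control at every probe set with shRNA1. NID1, whose product nidogen links laminin to collagen IV, gave 0.49 and 0.22 from signals near the median of all values. It was past that median on the shRNA1 array alone. Its dimmer probe sets were under that median on all arrays and lower with both shRNAs, so the direction of NID1 is uncertain. The median of all genes past the 75th percentile was 0.13 with shRNA2, and the ratios at the brightest probe sets stand beside that shift.

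Among proteoglycans secreted between cells, VCAN and SPOCK1 were lower with both shRNAs. VCAN encodes versican, a large hyaluronan-binding proteoglycan, and its signal was 2867 on the Luc array, 1757 on the shRNA1 array and 2043 on the shRNA2 array, log2 ratios of -0.71 and -0.49. SPOCK1, which encodes testican-1, had a signal of 327 on the Luc array, 238 on the shRNA1 array and 219.6 on the shRNA2 array, log2 ratios of -0.46 and -0.57. DCN, which encodes the collagen-binding decorin, read 18.5 on the Luc array, 3.82 on the shRNA1 array and 11.3 on the shRNA2 array, and passed the filter on the control array alone. Its ratios of -2.28 and -0.71 rest on signals near or under the median of all values, and a floor at that median left -0.63 and -0.63.

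Heparan sulfate proteoglycans of the cell surface, the syndecans and glypicans, act as co-receptors for growth factors and matrix. SDC2, which encodes syndecan-2, had a signal of 1299.6 on the Luc array, 512 on the shRNA1 array and 620.5 on the shRNA2 array. It was 2.54-fold lower with shRNA1 and 2.09-fold lower with shRNA2, ranks 60 and 33 from the lowest of the 8348 genes. Its other 2 probe sets gave -0.85 and -0.74, and -0.83 and -0.42, also lower with both shRNAs but not past 2-fold. SDC4, which encodes the syndecan of focal adhesions, had a signal of 1001 on the Luc array, 1332 on the shRNA1 array and 1678 on the shRNA2 array, log2 ratios of 0.41 and 0.74. Both G9a shRNA arrays lay above the control, the reverse of SDC2. SDC1, the main syndecan of epithelia, read 374 on the Luc array, 224 on the shRNA1 array and 369 on the shRNA2 array, log2 ratios of -0.74 and -0.02, so it was near the control with shRNA2 only. The glypican GPC6 read 16.2 on the Luc array, 8.20 on the shRNA1 array and 9.13 on the shRNA2 array, log2 ratios of -0.98 and -0.83, and was above the median of all values on the control array alone. GPC1, the glypican best known from epithelial tumours, gave -0.06 and 0.18.

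Lysyl oxidases oxidise lysines of collagen and elastin so that the chains can crosslink. LOXL2, the member of this family best known from invasive carcinoma, had a signal of 1147 on the Luc array, 640.2 on the shRNA1 array and 787 on the shRNA2 array, log2 ratios of -0.84 and -0.54. LOX itself had a signal of 105 on the Luc array, 67.3 on the shRNA1 array and 70.8 on the shRNA2 array, log2 ratios of -0.64 and -0.56, and its second probe set past the filter gave -1.01 and -0.54. In both genes each G9a shRNA array lay below the control. LOXL1 gave -0.19 and -0.37 from a control signal of 54.7. LOXL3 read 10.9 on the Luc array, 12.0 on the shRNA1 array and 3.32 on the shRNA2 array, log2 ratios of 0.15 and -1.71, and was past the median of all values on the shRNA1 array alone. TGM2, a transglutaminase that crosslinks matrix proteins by another reaction, read 232 on the Luc array, 328 on the shRNA1 array and 273 on the shRNA2 array, log2 ratios of 0.50 and 0.24, with the control lowest.

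The enzymes that prepare collagen in the endoplasmic reticulum were split by gene. PLOD2, the lysyl hydroxylase of collagen telopeptides, which sets the type of crosslink, had a signal of 739.9 on the Luc array, 277 on the shRNA1 array and 485 on the shRNA2 array. It was 2.67-fold lower with shRNA1 and 1.53-fold lower with shRNA2, and a second probe set gave -1.10 and -0.53. PLOD1, the lysyl hydroxylase of the helix, had a signal of 370.0 on the Luc array, 211 on the shRNA1 array and 244 on the shRNA2 array, log2 ratios of -0.81 and -0.60. P4HA1, the catalytic subunit of the main prolyl 4-hydroxylase, had a signal of 704 on the Luc array, 384 on the shRNA1 array and 492 on the shRNA2 array, log2 ratios of -0.87 and -0.52. These 3 genes were lower with each shRNA, whereas their paralogs P4HA2 and PLOD3 gave 0.06 and 0.15, and -0.07 and -0.23. SERPINH1, which encodes the collagen chaperone HSP47, read 22.4 on the Luc array, 48.5 on the shRNA1 array and 44.6 on the shRNA2 array, 2.16-fold and 1.99-fold higher. It has 1 probe set, with a highest signal under the 75th percentile.

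**Figure D3:**
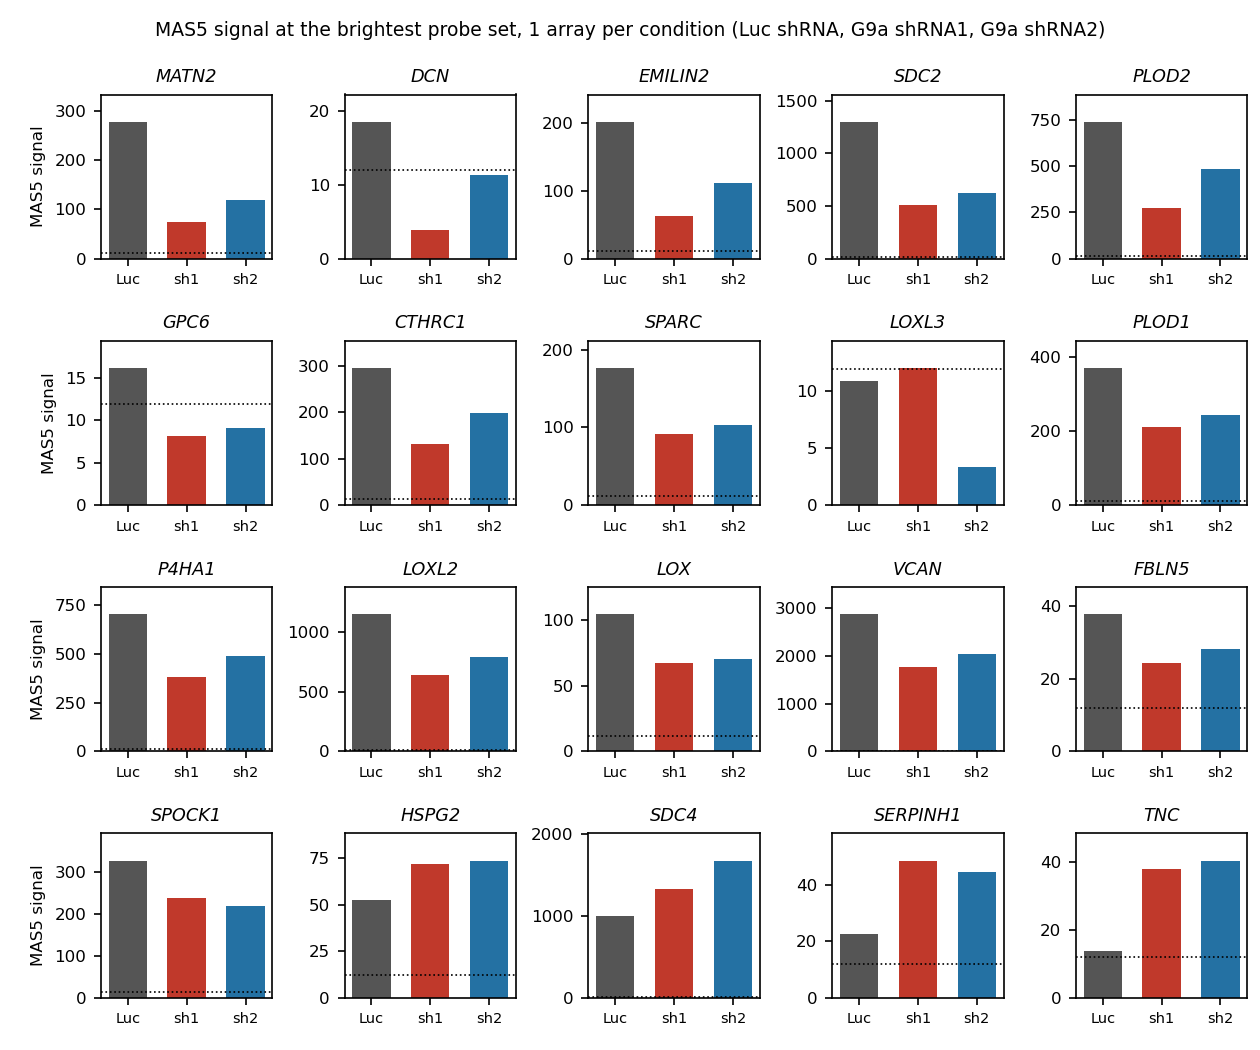
MAS5 signal (y axis, linear from 0) at the brightest probe set of 20 members on the Luc shRNA array (grey), the G9a shRNA1 array (red) and the G9a shRNA2 array (blue), 1 array per bar, ordered from the lowest to the highest mean log2 ratio. The dotted line is the median of all values, which the DCN, GPC6 and LOXL3 signals straddle. The highest bar is the control in MATN2, EMILIN2, SDC2 and PLOD2 and a G9a shRNA array in SDC4, SERPINH1 and TNC.

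Promoters of 4 members past 2-fold with at least 1 shRNA follow, lower in EMILIN2 and PLOD2 and higher in TNC and SERPINH1, with that of P4HA1 beside PLOD2 because both encode collagen hydroxylases. The reference table of RefSeq windows (GRCh38.p14, from 250 bases before to 50 bases after each start site) held 44 windows for 35 of the 48 members. Each line gives the 250 bases before the start site, written from 5′ to 3′ on the strand of the gene. Capitals mark matches on either strand to TATAAA (the TATA box), GGGCGG (the Sp1 box), TGANTCA (the AP-1 site), GGAATG (the TEAD site) or ACGTG (the core of the hypoxia response element). The SERPINH1 line holds none of the 5 motifs, although its window holds ACGTG 36 bases after the start site. An overlapping window of a later SERPINH1 start site holds the same match and GGGCGG. In EMILIN2 the AP-1 and TEAD matches overlap by 2 bases.
EMILIN2 (chr18:2846756-2847005, plus strand): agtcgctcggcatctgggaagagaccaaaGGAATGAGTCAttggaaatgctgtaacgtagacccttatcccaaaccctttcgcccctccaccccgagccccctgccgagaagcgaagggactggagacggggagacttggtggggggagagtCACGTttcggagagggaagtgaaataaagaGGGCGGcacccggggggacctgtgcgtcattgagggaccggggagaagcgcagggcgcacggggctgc
PLOD2 (chr3:146161185-146161434, minus strand): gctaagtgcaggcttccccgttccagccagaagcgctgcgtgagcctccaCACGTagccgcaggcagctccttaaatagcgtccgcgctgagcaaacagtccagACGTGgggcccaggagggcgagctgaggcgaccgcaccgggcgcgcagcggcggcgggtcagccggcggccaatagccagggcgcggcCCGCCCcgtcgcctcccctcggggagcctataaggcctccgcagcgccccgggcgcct
P4HA1 (chr10:73096867-73097116, minus strand): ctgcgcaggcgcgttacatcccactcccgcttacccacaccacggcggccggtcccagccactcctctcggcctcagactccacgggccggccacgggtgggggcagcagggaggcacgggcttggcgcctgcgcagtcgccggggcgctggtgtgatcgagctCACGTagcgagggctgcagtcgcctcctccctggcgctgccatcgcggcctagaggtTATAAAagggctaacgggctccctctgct
TNC (chr9:115118158-115118407, minus strand): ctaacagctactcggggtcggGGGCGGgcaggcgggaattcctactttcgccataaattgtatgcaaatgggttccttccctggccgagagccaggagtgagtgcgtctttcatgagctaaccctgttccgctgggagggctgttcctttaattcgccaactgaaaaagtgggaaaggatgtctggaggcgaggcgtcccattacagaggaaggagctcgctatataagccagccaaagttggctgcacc
SERPINH1 (chr11:75562003-75562252, plus strand): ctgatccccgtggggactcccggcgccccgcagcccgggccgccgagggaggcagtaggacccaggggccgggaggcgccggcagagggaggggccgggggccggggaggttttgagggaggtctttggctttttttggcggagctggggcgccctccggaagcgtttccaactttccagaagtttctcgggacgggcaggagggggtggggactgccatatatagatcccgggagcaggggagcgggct

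The lines above are a pick of members, so a motif they share is no result about the lower members. ACGTG lay in the lines of EMILIN2, PLOD2 and P4HA1, and at 2 places in that of PLOD2. The window of SERPINH1, which was higher, held it too, 36 bases after the start site, and that of TNC did not. ACGTG was found in 13 of 44 member windows (29.5%), which belong to 10 members, and in 21.4% of all 35116 windows. Overlapping windows can count 1 site more than once, as for ACGTG in LOX and SERPINH1. GGGCGG was in 30 member windows (68.2%), of 27 members, and in 45.0% of all. The TATAAA match of P4HA1 lay 29 bases before the start site, and TATAAA was in 6 member windows (13.6%) against 11.5% of all. TGANTCA was in 4 member windows (9.09%) against 7.71% of all, and GGAATG in 7 (15.9%) against 14%. A match describes the letters only, and no binding was measured here.

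Different probe sets of 1 gene read the same RNA through different stretches of its transcripts, and 15 members had at least 2 past the filter. They did not always give the same size. The brightest THBS1 probe set gave -0.29 and -0.42, whereas a dimmer one gave -1.29 and -1.25 and read 35.1 on the Luc array, 14.3 on the shRNA1 array and 14.8 on the shRNA2 array. A further bright THBS1 probe set gave -0.10 and 0.24, so for this gene the ratio depends on the probe set. With shRNA1 all 5 THBS1 probe sets past the filter were below the control. VCAN had 5 probe sets past the 75th percentile, whose log2 ratios ran from -0.71 to -0.15 with shRNA1 and from -0.49 to 0.03 with shRNA2. The 4 FN1 probe sets past the filter were all below the control with shRNA1, and 3 of 4 were with shRNA2. TGM2 was split, with its brightest probe set above the control and 2 dimmer ones at -0.36 and -0.16, and -0.37 and 0.30. FBLN1 had a probe set near the background at 2.58 and 1.65, while its other 4 lay between -0.76 and -0.22 with shRNA1. SDC2, PLOD2, SPARC and LOX were below the control at every probe set past the filter with each shRNA. Where the probe sets lie along their transcripts was not used here.

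**Figure D4:**
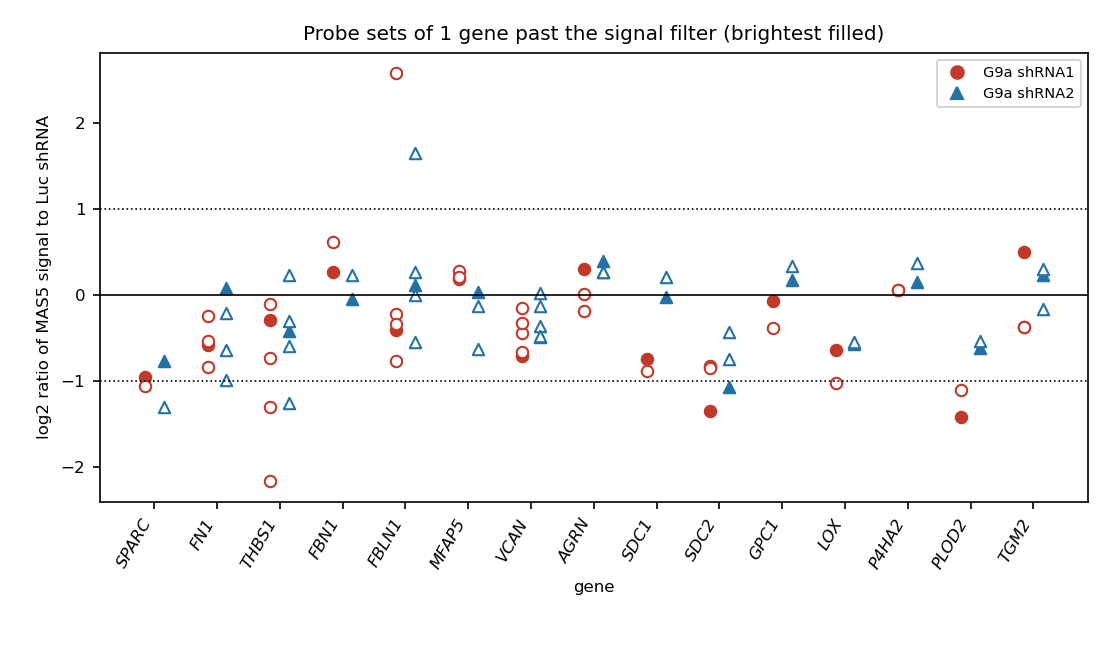
Log2 ratio to the Luc shRNA array (y axis) of each probe set past the filter for the 15 members with at least 2 (x axis), with shRNA1 as red circles and shRNA2 as blue triangles. Filled symbols mark the brightest probe set of a gene and dotted lines mark 2-fold. All symbols of SPARC, SDC2, LOX and PLOD2 lie below 0, and those of THBS1 and FBLN1 spread over more than 1 unit.

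The G9a shRNAs can also be set against each other, without the control array. G9a shRNA1 had the lower EHMT2 signal at the brightest probe set, while shRNA2 had it at the second (23.9 and 16.4). The shRNA1 array gave the lower signal for 20 of the 27 members past the 75th percentile (74.1%), and for 74.7% of all genes there, so this share is that of most genes. None of the 27 differed by more than 2-fold between the 2 arrays, against 0.407% of all genes. The largest log2 differences were -0.81 for EMILIN2, -0.81 for PLOD2, -0.72 for SDC1 and -0.70 for MATN2, beside a median of -0.13 over all genes. Of the 38 members past the median, 2 differed by more than 2-fold, DCN and LOXL3, in opposite directions, against 5.52% of all genes. Each passed the filter on 1 array alone, DCN on the control array and LOXL3 on the shRNA1 array, so the DCN ratios below rest on low signals. With both ratios to the control averaged, 7 of the 38 members were past 2-fold, with MATN2, DCN, EMILIN2, SDC2 and PLOD2 lower and TNC and SERPINH1 higher, against 7.41% of all genes in either direction.

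Related genes outside the 48 were read from 2 lists. Of 45 other matrix glycoproteins, 43 were measured and 31 passed the filter. Among those 31, 8 were more than 2-fold lower and 3 higher with shRNA1, against 5.1% and 4.21% of all genes past the filter. With shRNA2, 3 were lower and 2 higher, against 3.58% and 4.35%. The median of the 43 was -0.01 with shRNA1 and 0.11 with shRNA2, and over the 14 past the 75th percentile it was -0.30 and 0.03. Of those 14, 9 were below the control with shRNA1 and 7 with shRNA2, where 4136 and 2710 of all 8348 genes were. Past 2-fold lower were 3 with shRNA1 and 1 with shRNA2, against 1.98% and 0.539% of all genes there. Lower signals with shRNA1 were thus not limited to the members. The difference between the lists was not tested. IGFBP3, which binds insulin-like growth factors, had a signal of 2265 on the Luc array, 479 on the shRNA1 array and 809 on the shRNA2 array, log2 ratios of -2.24 and -1.48. NPNT, an integrin ligand of basement membranes, gave -1.19 and -0.98, and TINAGL1, another matrix glycoprotein, gave 0.70 and 1.42. Of 24 other collagen-processing genes, 23 were measured and 19 passed the filter. Past 2-fold, 1 was lower and 1 higher with shRNA1, beside 5.1% and 4.21% of all genes. With shRNA2, 2 were lower and 1 higher, beside 3.58% and 4.35%. The median of the 23 was -0.14 with shRNA1 and -0.03 with shRNA2, and over the 11 past the 75th percentile it was -0.26 and -0.12. Of those 11, 10 were below the control with shRNA1 and 8 with shRNA2, where 4136 and 2710 of all 8348 genes were. P3H2, a prolyl 3-hydroxylase, gave -0.87 and -0.46, SEC23A, a coat protein of the vesicles that export procollagen, gave -0.55 and -0.44, and FKBP14, a folding enzyme for collagen, gave 0.16 and 0.35.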

How the data were processed

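Total RNA from SKOV-3 cells was labelled with biotin by the submitters and hybridised to 1 Affymetrix U133 Plus 2.0 array per condition. The authors deposited MAS5 signal intensities on a linear scale for 54675 probe sets. The version and settings of MAS5 are not given in the sources used here, and 2% trimmed means of 105 to 115 show no common scaling target.

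Intensities were used as deposited, as log2 ratios of each G9a shRNA array to the Luc shRNA array. Genes were named from the array annotation through Entrez identifiers (41097 probe sets with 1 symbol, 1801 with several, 11777 with none, and 42 identifiers without a match in the gene table). A gene was read at its brightest probe set (mean log2 signal over the arrays) and counted when its highest signal reached the median of all values. The study's threshold of 2-fold stood in for a test. The number of arrays limits the precision. Members with their 3 signals in the text were past 2-fold with at least 1 shRNA or had log2 ratios of the same sign with a mean size of at least 0.5, with 1 more where a role group had none, and signals of further members were added after their values were seen. The members, lists and motifs were chosen with earlier results of these data known. Alternatives changed the filter, a floor, the scaling, the choice of probe set and the threshold, and one used limma 3.58.1 in R 4.3.3. The counting and the limma fit were tested on simulated data with less spread than these arrays show. How often a dim gene passes 2-fold by error was not tested. The software was Python 3.11.15 (numpy 2.4.6, pandas 2.3.3, matplotlib 3.10.9).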

Additional observations from a re-analysis of the deposited data

How the results depend on the processing

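The counts of members past 2-fold were 6 lower and 2 higher with shRNA1 and 3 lower and 1 higher with shRNA2. Without a filter they were 8 lower and 6 higher with shRNA1 and 7 lower and 5 higher with shRNA2, and with a filter at the 75th percentile 5 lower and 0 higher with shRNA1 and 2 lower and 0 higher with shRNA2. At 1.5-fold they were 16 lower and 2 higher with shRNA1 and 9 lower and 3 higher with shRNA2, and at 3-fold 3 lower and 0 higher with shRNA1 and 1 lower and 0 higher with shRNA2. Under the scalings, the floor, the other choices of probe set and a filter on the geometric mean (chosen after seeing the data), all 4 counts were within 1.5 times of these. The median log2 ratios of -0.30 and -0.25 were -0.46 and -0.42 past the 75th percentile and -0.066 and -0.0096 with the floor, which sets the 10 members under the filter to 0. With shRNA2 the median was -0.40 after quantile normalization, -0.36 with equal trimmed means, -0.38 when centred over genes past the 75th percentile (also chosen after seeing the data) and -0.40 at the probe set brightest on the control array. Quantile normalization moved the median of all genes past the 75th percentile with shRNA2 from 0.13 to 0.01. Of members, 2 were past 2-fold between shRNA1 and shRNA2, 0 past the 75th percentile and 0 under the filter on the geometric mean. Of 280 values of the named members under 7 alternatives, none changed sign, 3 were no longer past 2-fold and 5 became so. With the G9a shRNA arrays as 1 group, 7 of the 38 members had a mean ratio past 2-fold, against 7.41% of all genes past the filter. The limma fit assumes that the lone control varies like these arrays, so its p-values and calls are not given. No paired analysis was possible because each condition has 1 array. Low signal limits the ratios of the 11 members between the median and the 75th percentile.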

Other observations

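Of the enzymes that build the sugar chains of proteoglycans, none that passed the filter was past 2-fold. Over all genes past it, 5.1% were lower and 4.21% higher with shRNA1, and 3.58% and 4.35% with shRNA2. Of 37 such enzymes, 35 were measured and 27 passed the filter, and the median of the 35 was -0.15 with shRNA1 and 0.01 with shRNA2. Over the 22 past the 75th percentile it was -0.22 and -0.02. HS2ST1, a sulfotransferase of heparan sulfate, had a signal of 199 on the Luc array, 116 on the shRNA1 array and 141 on the shRNA2 array, log2 ratios of -0.77 and -0.49. CHSY1, which extends chondroitin sulfate chains such as those of versican, gave -0.83 and -0.43, and CHST11, a sulfotransferase of the same chains, gave 0.49 and 0.62, so that the enzymes of chondroitin sulfate lay on both sides of the control.

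Of 20 other proteoglycans and their carriers, 11 passed the filter. Past 2-fold, 0 were lower and 1 higher with shRNA1, beside 5.1% and 4.21% of all genes. With shRNA2, 0 were lower and 2 higher, beside 3.58% and 4.35%. The median of the 20 was -0.14 with shRNA1 and -0.27 with shRNA2, and over the 6 past the 75th percentile it was -0.27 and 0.03. SDC3, the syndecan of nerve and muscle, gave -0.85 and -0.48, TGFBR3, a TGF-β co-receptor that carries such chains, gave 0.51 and 0.71, and SRGN, the proteoglycan of secretory granules, gave -0.37 and -0.62. Those past 2-fold, named after their values were seen, were NCAN with both shRNAs and ACAN with shRNA2, which encode neurocan and aggrecan. Their control signals of 10.7 and 9.09 were under the median of all values.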
